A study of Arabidopsis thaliana with 18 samples.

Results

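The comparison described here is the shift of the wild-type seedling transcriptome between an early and a later phase of jasmonic acid (JA) treatment: wild type after 3 h on JA against wild type after 1 h on JA. Its members are the 6 of 18 libraries that the sample labels give to these groups, 3 at 3 h and 3 at 1 h. The later group was Arabidopsis thaliana Col-0 wild type, raised for 6 days in a long-day light cycle on sucrose-containing medium, moved to plates with 50 µM JA and taken as whole seedlings after 3 h. The earlier group had the same genotype, age and treatment and was taken after 1 h. Both groups carried JA, and a mock plate is not analysed here. Time on JA, time since transfer and time of day therefore cannot be told apart. The series also holds wild type at 0 h, labelled untreated, and the mutant ecap-2 at 0, 1 and 3 h. These are used beside the wild-type shift where they bear on it. Whether the 3 libraries of a group are separate cultures is not in the labels, and p-values here reflect the scatter of these libraries, which could be only technical.

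As background, JA is a lipid-derived hormone of wounding and defence, made from plastid fatty acids by lipoxygenases (LOX), allene oxide synthase (AOS) and allene oxide cyclases (AOC) and then in peroxisomes by the reductase OPR3. Conjugation to isoleucine by JAR1 gives the active form, which brings JAZ repressor proteins to the receptor COI1 for degradation and so releases MYC transcription factors. MYC targets include genes of JA synthesis, of JA breakdown and of the JAZ repressors themselves, which gives the pathway positive and negative feedback. In seedlings JA also raises anthocyanin and glucosinolate production. The circadian clock runs beneath all of this: in the morning CCA1 and LHY peak and repress evening genes, and the PRR repressors follow them through the day.

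Expression is given in FPKM, a level per length of transcript and relative to the library's mapped fragments. Changes are differences of log2(FPKM + 1), 3 h minus 1 h, ± SE, which understate the change of genes near 0. A gene is said to have risen or fallen where limma gave a Benjamini-Hochberg adjusted p under 0.05 over the 17835 genes tested. Wild-type libraries at 1 and 3 h each held 20136 to 20520 genes above 0. Read depth is unknown, and a relative depth estimated from low genes ran from 0.959 to 1.00 at 3 h and from 0.669 to 1.07 at 1 h. Replicates correlated across genes at r = 0.985 or more on the log2 scale. The first principal component of the 6 libraries held 60.6% of the variance and separated 3 h from 1 h. Photosynthesis, root and guard cell markers were all measured, as a whole seedling should have. In such bulk samples fewer cells of a type and less RNA per cell cannot be told apart.

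At 3 h relative to 1 h, 2579 genes rose and 2585 fell, which is 14.5% and 14.5% of the genes tested and 29.0% together. A change of at least 1 on the log2(FPKM + 1) scale is called 2-fold from here on. It was reached by 314 of the rises (1.76% of the genes tested) and 214 of the falls (1.20%). Genes, above all those at low levels, could pass 2-fold in FPKM without reaching it. For 3762 genes (21.1%) all 3 libraries at 3 h lay above all 3 at 1 h, and for 3945 (22.1%) all lay below. The median change over all genes was −0.01. The JA pathway changed in both directions: 8 of 13 genes of JA synthesis, 7 of 9 of JA turnover and 8 of 11 JAZ repressor genes fell, while AOC2, LOX2 and VSP1 rose. Genes of late anthocyanin and aliphatic glucosinolate synthesis were among those that rose. Of the clock genes, 8 of 10 morning genes fell and 7 of 11 day and evening genes rose.

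**Figure D1:**
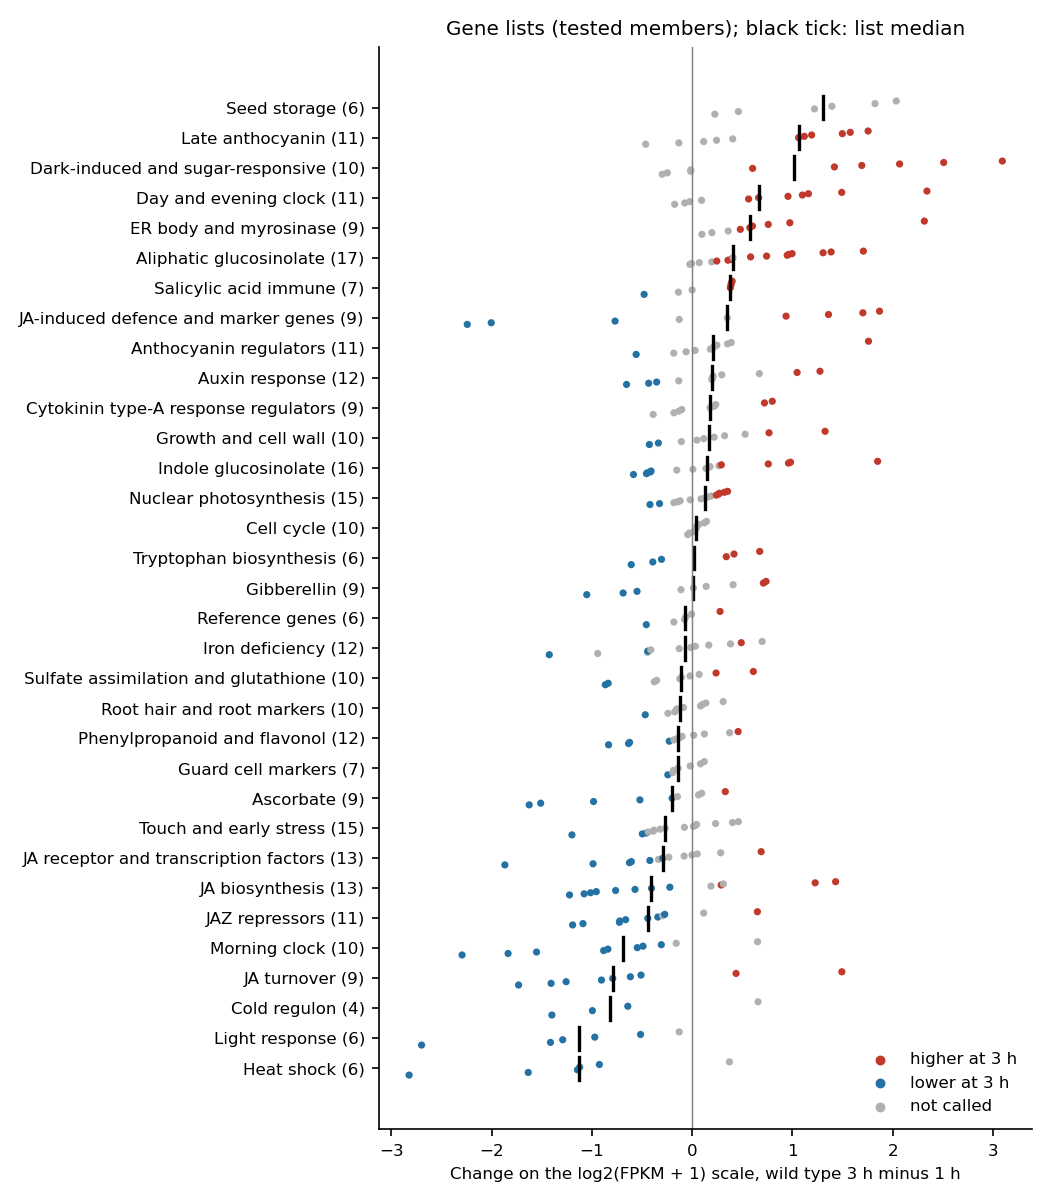
Change of each tested member of 33 gene lists on the log2(FPKM + 1) scale, wild type 3 h minus 1 h, with lists ordered by their median (black tick) and the number tested in parentheses. Red points rose, blue points fell and grey points were not called. Heat shock, light response, cold, JA turnover and morning clock lists sit lowest, with medians of −1.13 to −0.69, and the late anthocyanin list has a median of 1.06.

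Among 13 tested genes of JA synthesis, 8 fell and 3 rose, with a median change of −0.41. The genes that fell act at several steps. OPR3, which reduces the cyclic JA precursor OPDA in the peroxisome, measured 93.8, 114 and 96.9 FPKM at 3 h, against 187, 187 and 219 FPKM at 1 h. The 3 h libraries all lay below the 1 h ones (log2 change −0.96 ± 0.10, adjusted p = 1.81e-06). The 13-lipoxygenase LOX3 measured 7.84, 10.3 and 7.09 FPKM at 3 h, against 22.2, 17.3 and 23.3 FPKM at 1 h (log2 change −1.22 ± 0.14, adjusted p = 6.89e-06). Its relative LOX4 (log2 change −1.01 ± 0.13, adjusted p = 1.66e-05) and the lipoxygenase LOX6 (log2 change −0.57 ± 0.07, adjusted p = 2.08e-05) also fell. AOC3, one of the allene oxide cyclases, measured 13.9, 15.1 and 16.9 FPKM at 3 h, against 37.0, 31.1 and 32.0 FPKM at 1 h (log2 change −1.08 ± 0.11, adjusted p = 1.67e-06). OPCL1, which activates the precursor for beta-oxidation, fell by less (−0.76 ± 0.16, adjusted p = 0.00162), as did the conjugating enzyme JAR1 (−0.41 ± 0.06, adjusted p = 9.6e-05). The acyl-CoA oxidase gene ACX1 had the smallest of these changes (log2 change −0.22 ± 0.08, adjusted p = 0.0476). That call ended with no filter on low values (0.0574), with median ratio scaling (0.0505), with plain empirical Bayes (0.06), with a fit to only these 6 libraries (0.057), without the 3 h library 1 (0.118), without the 3 h library 2 (0.108), without the 3 h library 3 (0.0805), without the 1 h library 1 (0.145) and without the 1 h library 2 (0.141).

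AOC2 and LOX2 moved the other way. AOC2 measured 375, 428 and 379 FPKM at 3 h, against 152, 148 and 137 FPKM at 1 h, and all 3 h libraries lay far above the 1 h ones (log2 change 1.43 ± 0.17, adjusted p = 1.14e-05). LOX2, the main leaf lipoxygenase of bulk JA synthesis, measured 437, 509 and 337 FPKM at 3 h, against 207, 181 and 155 FPKM at 1 h (log2 change 1.23 ± 0.25, adjusted p = 0.00191). The thiolase gene KAT2 rose slightly (0.29 ± 0.06, adjusted p = 0.00243). AOS measured 285, 352 and 270.0 FPKM at 3 h, against 277, 255 and 260.3 FPKM at 1 h and AOC1 138, 188 and 151 FPKM at 3 h, against 127, 120.2 and 133 FPKM at 1 h, and neither passed the test (adjusted p = 0.318 and 0.132). All 4 of AOC2, LOX2, AOS and AOC1 had been lower at 0 h, where their means were 12 ± 1.11, 5.60 ± 0.809, 25.0 ± 1.13 and 15.4 ± 3.16 FPKM. AOC1, AOC2 and AOC3 are neighbouring close copies. How fragments were split between such copies is not given in the sources used here, so their separate values are uncertain.

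Of 9 tested genes whose products modify or inactivate JA or its conjugate, 7 fell and 2 rose (median −0.79). CYP94C1, which oxidises JA-isoleucine, measured 4.42, 6.01 and 4.73 FPKM at 3 h, against 16.6, 20.3 and 20.2 FPKM at 1 h (log2 change −1.73 ± 0.12, adjusted p = 2.85e-08). Its relative CYP94B3, which hydroxylates the conjugate, measured 6.77, 6.93 and 6.36 FPKM at 3 h, against 20.1, 17.2 and 21.1 FPKM at 1 h (log2 change −1.41 ± 0.16, adjusted p = 5.69e-06). The groups did not overlap for either gene. IAR3, an amidohydrolase that splits JA-isoleucine and auxin conjugates, measured 76.8, 80.3 and 77.0 FPKM at 3 h, against 189, 183 and 191 FPKM at 1 h (log2 change −1.26 ± 0.08, adjusted p = 1.2e-08). JOX4, one of the oxygenases that hydroxylate JA itself, measured 51.7, 51.2 and 43.6 FPKM at 3 h, against 101, 96.0 and 80.6 FPKM at 1 h (log2 change −0.90 ± 0.11, adjusted p = 7.96e-06). CYP94B1 (−0.51), the amidohydrolase ILL6 (−0.79) and the methyltransferase JMT (−0.62) completed the falls, with adjusted p of 0.00127, 0.00253 and 0.00105. Against these, the oxygenase JOX3 measured 37.6, 40.6 and 31.9 FPKM at 3 h, against 14.7, 12.6 and 10.1 FPKM at 1 h (log2 change 1.49 ± 0.23, adjusted p = 0.000174), a call that ended with a pseudocount of 0.1 (0.0517). The sulfotransferase ST2A, which acts on hydroxylated JA, had a smaller rise (log2 change 0.44 ± 0.14, adjusted p = 0.0238), and its call ended with a fit to only these 6 libraries (0.0548), without the 3 h library 1 (0.0674), without the 3 h library 2 (0.0648) and without the 1 h library 3 (0.135).

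**Figure D2:**
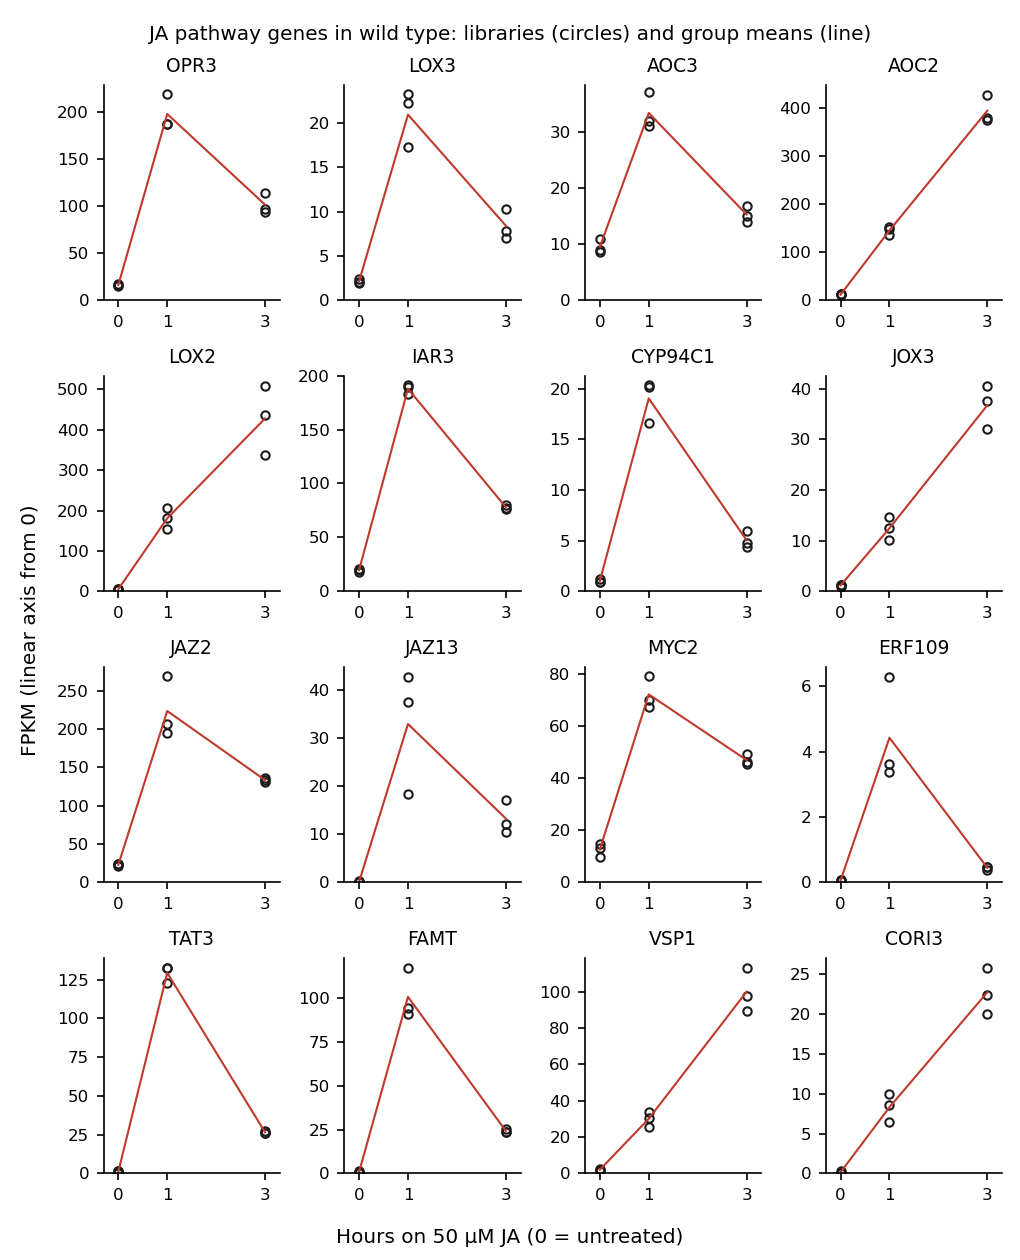
FPKM of 16 JA pathway genes in wild type at 0, 1 and 3 h, with 1 circle for each library and a line through the group means, each panel on its own linear axis from 0. OPR3, LOX3, IAR3, CYP94C1, JAZ2, MYC2, TAT3 and FAMT stand highest at 1 h, while AOC2, LOX2, JOX3, VSP1 and CORI3 stand highest at 3 h.

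Of the 11 JAZ genes tested, 8 fell, 1 rose and 2 were not called (median −0.44). JAZ2 measured 131, 136 and 134 FPKM at 3 h, against 196, 206 and 269 FPKM at 1 h (log2 change −0.73 ± 0.11, adjusted p = 0.000153). JAZ9 measured 259, 310.3 and 264 FPKM at 3 h, against 478, 380.3 and 466 FPKM at 1 h (log2 change −0.66 ± 0.15, adjusted p = 0.00288). The 3 h libraries of both lay below all 1 h libraries, but far above the 0 h means of 23.0 ± 1.54 and 46.0 ± 7.93 FPKM. JAZ13, a non-canonical member, measured 10.6, 17.2 and 12.2 FPKM at 3 h, against 37.6, 18.5 and 42.9 FPKM at 1 h (log2 change −1.19 ± 0.24, adjusted p = 0.00134), and its call ended with a fit to only these 6 libraries (0.0771). JAZ7 (log2 change −1.09 ± 0.34, adjusted p = 0.0243) and JAZ8 (log2 change −0.72 ± 0.17, adjusted p = 0.00343), which lack the usual degron, also fell. The JAZ7 call ended with a pseudocount of 0.1 (0.147), without the 3 h library 1 (0.0847) and without the 1 h library 3 (0.0881), and the JAZ8 call ended with a pseudocount of 0.1 (0.108). JAZ1 (−0.34 ± 0.10, adjusted p = 0.0137) and JAZ12 (−0.27 ± 0.08, adjusted p = 0.0143) fell by less. Those calls ended without the 3 h library 3 (0.0576) for JAZ1 and without the 3 h library 1 (0.0845) for JAZ12. JAZ10, whose splice forms resist degradation, had a change of −0.44 ± 0.16 (adjusted p = 0.0437), which did not hold in 8 alternatives, among them each left-out library but the 1 h library 1, with an adjusted p of up to 0.173. With a pseudocount of 0.1, or without the 3 h library 1, 5 JAZ genes fell.

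JAZ4 went against the rest. It measured 4.2, 5.54 and 4.54 FPKM at 3 h, against 2.56, 2.61 and 2.78 FPKM at 1 h, with no overlap (log2 change 0.65 ± 0.12, adjusted p = 0.000799), and it had 2.93, 3.31 and 2.49 FPKM at 0 h. A filter at a mean of 5 FPKM leaves JAZ4 untested. JAZ3 (−0.29, adjusted p = 0.0754) and JAZ11 (0.12, adjusted p = 0.392) did not pass the test. JAZ3 passed as a fall with a pseudocount of 5 (0.0479), with a common total (0.0494), with the replicate number as a block (0.0142), with a fit to only these 6 libraries (0.023) and without the 1 h library 1 (0.0483).

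Of 13 tested genes for the receptor COI1 and JA-linked transcription factors, 6 fell and 1 rose (median −0.29). MYC2, the main activator of the pathway, measured 46.4, 49.3 and 45.5 FPKM at 3 h, against 70.0, 67.4 and 79.5 FPKM at 1 h (log2 change −0.61 ± 0.13, adjusted p = 0.00187). MYC4 also fell (log2 change −0.63 ± 0.11, adjusted p = 0.000404), and MYC3 had a change of 0.05 ± 0.07 (adjusted p = 0.653). ERF109, a rapidly wound-induced factor, measured 0.467, 0.385 and 0.487 FPKM at 3 h, against 3.62, 3.37 and 6.29 FPKM at 1 h (log2 change −1.87 ± 0.16, adjusted p = 2.43e-07). Its level had been 0.0713, 0.0415 and 0.0809 FPKM at 0 h. NAC072 measured 11.6, 11.9 and 15.2 FPKM at 3 h, against 26.7, 22.5 and 30.5 FPKM at 1 h (log2 change −0.99 ± 0.16, adjusted p = 0.00028). The repressor JAM1 (−0.42, adjusted p = 0.00209) and COI1 (−0.29, adjusted p = 0.00384) fell by less, and the repressor JAM3 was not called (adjusted p = 0.99). ORA59, which serves the JA and ethylene branch, measured 3, 1.95 and 4.27 FPKM at 3 h, against 0.915, 1.5 and 2.11 FPKM at 1 h, and the groups overlapped (log2 change 0.69 ± 0.19, adjusted p = 0.012). Its call ended with a pseudocount of 0.1 (0.0627), with a fit to only these 6 libraries (0.0744), without the 3 h library 3 (0.0787) and without the 1 h library 1 (0.0678).

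The JA marker and defence genes split, with 4 of 9 higher, 3 lower and a median of 0.35. VSP1, a vegetative storage protein used as a JA marker, measured 97.5, 113 and 89.1 FPKM at 3 h, against 25.6, 34.0 and 30.5 FPKM at 1 h (log2 change 1.7 ± 0.27, adjusted p = 0.000301). Its close copy VSP2 measured 136, 154 and 98.3 FPKM at 3 h, against 38.5, 33.5 and 30.8 FPKM at 1 h (log2 change 1.87 ± 0.60, adjusted p = 0.0326), but the VSP2 call ended in each of the 6 fits that left out a library, with a pseudocount of 0.1 and with the replicate block (adjusted p of up to 0.108). Fragments of these copies may have been shared. CORI3, a cystine lyase gene, measured 22.3, 25.8 and 20 FPKM at 3 h, against 9.89, 8.55 and 6.46 FPKM at 1 h (log2 change 1.36 ± 0.30, adjusted p = 0.00339). NATA1, an acetyltransferase of defence, had a change of 0.94 ± 0.18 (adjusted p = 0.000954), at levels of 2.24 FPKM and less. TAT3, a JA-inducible tyrosine aminotransferase, measured 27.3, 26.1 and 26.2 FPKM at 3 h, against 132, 133 and 123 FPKM at 1 h (log2 change −2.24 ± 0.16, adjusted p = 4.43e-08). FAMT, annotated as a farnesoic acid methyltransferase, measured 23.9, 25.2 and 23.6 FPKM at 3 h, against 90.8, 94.1 and 117 FPKM at 1 h (log2 change −2.0 ± 0.20, adjusted p = 2.64e-06). The terpene synthase gene TPS04 fell (log2 change −0.77 ± 0.13, adjusted p = 0.000278), at under 1 FPKM in every wild-type library. The arginase gene ARGAH2 (0.35, adjusted p = 0.183) and the chlorophyllase gene CLH1 (−0.13, adjusted p = 0.699) were not called. ARGAH2 passed with the replicate number as a block (0.0456).

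Late anthocyanin genes, whose products turn dihydroflavonols into coloured and decorated pigments, gave 6 rises and 0 falls among 11 tested (7 and 1 at an unadjusted p under 0.05, limma), with a median of 1.06. DFR, which commits dihydroflavonols to anthocyanin, measured 15.8, 19.6 and 10.9 FPKM at 3 h, against 6.20, 3.90 and 2.04 FPKM at 1 h (log2 change 1.75 ± 0.28, adjusted p = 0.000244). LDOX, the next enzyme, measured 16.0, 18.9 and 9.97 FPKM at 3 h, against 6.36, 5.59 and 2.40 FPKM at 1 h (log2 change 1.5 ± 0.27, adjusted p = 0.000837). The groups did not overlap for either gene, and the third library was the lowest at both times. TT19, a glutathione transferase of anthocyanin transport, measured 12.2, 15 and 7.34 FPKM at 3 h, against 5.18, 4.05 and 1.12 FPKM at 1 h (log2 change 1.58 ± 0.34, adjusted p = 0.00276), a call that ended with a fit to only these 6 libraries (0.0823). The acyltransferase 5MAT (1.19) and the glycosyltransferases UGT75C1 (1.12) and UGT79B1 (1.06) rose with adjusted p of 0.000592, 0.00234 and 0.00122. UGT78D2, a glucosyltransferase that flavonols and anthocyanins share, had a change of −0.46 ± 0.21 (adjusted p = 0.107). It passed as a fall with the replicate number as a block (0.00194) and with a fit to only these 6 libraries (0.0347).

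Of 12 tested genes of the earlier phenylpropanoid and flavonol steps, 4 fell and 1 rose (median −0.14), and 2 fell without the 3 h library 1 or 3 or the 1 h library 1 or 2. The flavanone hydroxylase gene F3H measured 64.3, 79.9 and 55.1 FPKM at 3 h, against 115, 107 and 86.2 FPKM at 1 h (log2 change −0.62 ± 0.16, adjusted p = 0.00686). The flavonol regulator MYB111 (log2 change −0.83 ± 0.19, adjusted p = 0.00371), the cinnamate hydroxylase gene C4H (log2 change −0.23 ± 0.08, adjusted p = 0.044) and the ligase gene 4CL3 (log2 change −0.63 ± 0.20, adjusted p = 0.0283) fell. The 4CL3 call ended without the 3 h library 1 (0.078), without the 3 h library 3 (0.118), without the 1 h library 1 (0.072) and without the 1 h library 2 (0.113). The C4H call did not hold in 8 alternatives, among them each left-out library but the 1 h library 3 (adjusted p of up to 0.165). The rise was the flavonoid hydroxylase gene F3'H (log2 change 0.46 ± 0.16, adjusted p = 0.0431), a call that did not hold in 9 alternatives, among them each left-out library but the 3 h library 3 (adjusted p of up to 0.221). Its groups overlapped, and its means of 5.99 FPKM at 3 h and 3.98 FPKM at 1 h lay below the 0 h mean of 11.9 FPKM. Chalcone synthase CHS (−0.18, adjusted p = 0.375) and the flavonol synthase FLS1 (−0.15, adjusted p = 0.397) were not called, at 147 ± 20 FPKM at 3 h and 166 ± 12.3 FPKM at 1 h for CHS. Among 11 regulators of anthocyanin, MYBL2, a repressor of the pathway, measured 30.3, 26.1 and 41.2 FPKM at 3 h, against 6.07, 7.46 and 14.4 FPKM at 1 h (log2 change 1.76 ± 0.32, adjusted p = 0.000815), and the activator gene GL3 measured 2, 1.73 and 2.02 FPKM at 3 h, against 3.22, 3.46 and 3.2 FPKM at 1 h (log2 change −0.56 ± 0.10, adjusted p = 0.000436). Only these 2 of the 11 were called, beside 29.0% of all genes. In other fits, 2 rose without the 3 h library 2 and 3 without the 1 h library 3. The activator PAP1 was not called, at 8.49, 12.7 and 3.83 FPKM at 3 h, against 12.6, 9.28 and 5.55 FPKM at 1 h, with the libraries of both times spread widely. TT8 (0.39, adjusted p = 0.0796) was not called either, although it passed with a pseudocount of 0.1 (0.019) and with the replicate number as a block (0.0413).

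Genes for glucosinolates, the sulfur-rich defence compounds of this plant family, include a methionine-derived and a tryptophan-derived branch. Of 17 tested aliphatic glucosinolate genes, 12 rose and 0 fell (13 and 0 at an unadjusted p under 0.05, limma), with a median of 0.41. The core genes SUR1 and UGT74B1, which both fell, were counted only with the indole branch. The 0 falls therefore do not cover core steps that the branches share. MAM1, the condensing enzyme of side-chain elongation, measured 74.6, 66.0 and 66.7 FPKM at 3 h, against 19.0, 23.4 and 19.1 FPKM at 1 h (log2 change 1.71 ± 0.16, adjusted p = 6.81e-07). The elongation enzyme IPMDH1 measured 132, 132 and 134 FPKM at 3 h, against 67.6, 70.7 and 66.2 FPKM at 1 h (log2 change 0.95 ± 0.09, adjusted p = 5.69e-07). All 3 h libraries of both genes lay above all 1 h libraries. The transcription factor MYB29 measured 10.4, 8.42 and 6.74 FPKM at 3 h, against 3, 2.55 and 2.28 FPKM at 1 h (log2 change 1.39 ± 0.18, adjusted p = 1.79e-05), and MYB28 measured 40.4, 39.5 and 35.2 FPKM at 3 h, against 26.4, 31.1 and 28.5 FPKM at 1 h without passing the test (adjusted p = 0.0624). MYB28 passed with a pseudocount of 5 (0.0381), with the replicate number as a block (0.0237) and with a fit to only these 6 libraries (0.00681). The transporter gene BAT5 (log2 change 0.74 ± 0.10, adjusted p = 2.64e-05) and the core P450 gene CYP83A1 (log2 change 1.0 ± 0.15, adjusted p = 0.00011) rose as well. BCAT4, which starts elongation, and the sulfotransferase SOT17, which ends core synthesis, had changes of −0.01 ± 0.14 and 0.07 ± 0.08 (adjusted p = 0.981 and 0.569).

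The tryptophan-derived indole glucosinolate genes split, with 5 of 16 higher and 5 lower (median 0.15). The named genes that fell belong to core synthesis or its control, although a core gene also rose. SOT16, the last core enzyme, measured 203, 222 and 214 FPKM at 3 h, against 265, 318 and 295 FPKM at 1 h (log2 change −0.46 ± 0.07, adjusted p = 0.00011). SUR1 (−0.42, adjusted p = 0.00116) and UGT74B1 (−0.41, adjusted p = 0.000715), which act before it, also fell, as did the transcription factor MYB34 (log2 change −0.45 ± 0.12, adjusted p = 0.0096). The MYB34 call ended without the 3 h library 3 (0.0548). Those that rose include modifying enzymes. IGMT1, a methyltransferase of indole glucosinolates, measured 51.7, 47.4 and 44.9 FPKM at 3 h, against 13.1, 12.2 and 12.5 FPKM at 1 h (log2 change 1.85 ± 0.18, adjusted p = 1.32e-06). CYP81F4, which hydroxylates the indole ring, measured 665, 686 and 606 FPKM at 3 h, against 387, 412 and 357 FPKM at 1 h (log2 change 0.76 ± 0.11, adjusted p = 5.14e-05). GSTF9, a glutathione transferase placed in core synthesis, also rose and measured 1350.2, 1302 and 1251 FPKM at 3 h, against 647, 701 and 629 FPKM at 1 h (log2 change 0.98 ± 0.08, adjusted p = 1.92e-07). CYP79B2 (0.27, adjusted p = 0.07) and CYP83B1 (0.16, adjusted p = 0.22) were not called. CYP79B2 passed with median ratio scaling (0.0401), with the replicate number as a block (0.0435) and without the 1 h library 2 (0.0102). IGMT1 has close copies, so its share of fragments is uncertain. Without the 3 h library 1 or 2 or the 1 h library 1, 3 members rose.

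Breakdown partners of glucosinolates moved upward: 6 of 9 tested genes of the ER body, an organelle that stores beta-glucosidases, and of myrosinase action rose and 0 fell (8 and 0 at an unadjusted p under 0.05, limma; median 0.58). BGLU18, a wound-inducible ER body glucosidase, measured 216, 237 and 179.7 FPKM at 3 h, against 45.7, 45.5 and 33.9 FPKM at 1 h (log2 change 2.32 ± 0.15, adjusted p = 2.54e-08). Each library at 3 h held over 3 times the level of any library at 1 h. PYK10, the abundant root ER body glucosidase, measured 3974, 4086 and 3886 FPKM at 3 h, against 2308, 2596 and 2172 FPKM at 1 h (log2 change 0.76 ± 0.07, adjusted p = 6.52e-07). The nitrile specifier NSP1 measured 1195, 1224 and 1162 FPKM at 3 h, against 612, 635 and 575 FPKM at 1 h (log2 change 0.97 ± 0.07, adjusted p = 8.12e-08), and the ER body protein gene NAI2 rose as well (log2 change 0.60 ± 0.09, adjusted p = 9.2e-05). The epithiospecifier genes ESP (0.58, adjusted p = 0.00173) and its modifier ESM1 (0.48, adjusted p = 0.0121) rose. The ESM1 call ended without the 3 h library 2 (0.0566) and without the 1 h library 1 (0.0682).

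Genes of the supply pathways were called in both directions. Of 6 tryptophan synthesis genes, 3 rose and 3 fell. The tryptophan synthase gene TSB1 measured 156, 166 and 160.3 FPKM at 3 h, against 98.2, 105 and 97.7 FPKM at 1 h (log2 change 0.67 ± 0.08, adjusted p = 8.67e-06), and its close copy TSB2 measured 14.5, 17 and 13.4 FPKM at 3 h, against 22.6, 25.3 and 22 FPKM at 1 h (log2 change −0.61 ± 0.11, adjusted p = 0.00054). ASA1, the first enzyme of the branch, fell (log2 change −0.39 ± 0.07, adjusted p = 0.000244). Of 10 genes of sulfate assimilation and glutathione synthesis, 2 rose and 2 fell, beside 14.5% of all genes called each way. Counts this small do not set the list apart from all genes. The glutathione synthetase gene GSH2 measured 101, 107 and 98.6 FPKM at 3 h, against 68.7, 67.0 and 63.9 FPKM at 1 h (log2 change 0.61 ± 0.05, adjusted p = 4.47e-07). The sulfate reductase gene APR3 measured 72.1, 94.8 and 73.2 FPKM at 3 h, against 159, 164 and 111 FPKM at 1 h (log2 change −0.84 ± 0.22, adjusted p = 0.00994). GSH1 (log2 change 0.24 ± 0.07, adjusted p = 0.0177) and APR2 (log2 change −0.87 ± 0.24, adjusted p = 0.0131) made up the counts, and their calls ended with a fit to only these 6 libraries (0.055), without the 3 h library 2 (0.0549), without the 1 h library 1 (0.0572) and without the 1 h library 3 (0.0914) for GSH1 and with a fit to only these 6 libraries (0.0537), without the 3 h library 1 (0.0628) and without the 1 h library 2 (0.0603) for APR2.

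Ascorbate genes gave 5 falls and 1 rise among 9 tested (median −0.20). VTC2, which makes the committed step of ascorbate synthesis, measured 113, 144 and 109 FPKM at 3 h, against 416, 414 and 308 FPKM at 1 h (log2 change −1.62 ± 0.23, adjusted p = 8.54e-05). Its paralog VTC5 measured 44.8, 54.3 and 47.1 FPKM at 3 h, against 97.1, 97.9 and 96.2 FPKM at 1 h (log2 change −0.98 ± 0.08, adjusted p = 1.98e-07). The earlier enzyme VTC1 also fell (log2 change −0.52 ± 0.10, adjusted p = 0.000939). MDAR3, which recycles ascorbate, measured 173, 161 and 182 FPKM at 3 h, against 471, 528 and 476 FPKM at 1 h (log2 change −1.51 ± 0.10, adjusted p = 1.13e-08), having had 22, 25.1 and 19.2 FPKM at 0 h. The 3 h libraries of VTC2, VTC5 and MDAR3 all lay below their 1 h libraries. The rise was DHAR1 (log2 change 0.33 ± 0.10, adjusted p = 0.0175), and without the 3 h library 1 or 2 or the 1 h library 3 no member rose (adjusted p of up to 0.0779).

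The 12 largest rises and the 12 largest falls among genes with at least 5 FPKM in the higher group and no overlap between the groups are named next. The largest rise was AT3G62550, annotated as an adenine nucleotide alpha hydrolase-like protein, which measured 21.7, 16.6 and 24.6 FPKM at 3 h, against 0.262, 0.551 and 0.634 FPKM at 1 h (log2 change 3.88 ± 0.23, adjusted p = 8.54e-09). AT2G15880, a leucine-rich repeat family gene, measured 45.2, 36.0 and 65.4 FPKM at 3 h, against 2.13, 3.18 and 5.29 FPKM at 1 h (log2 change 3.48 ± 0.59, adjusted p = 0.000667). CCL, annotated as CCR-like, measured 171, 135 and 187 FPKM at 3 h, against 13.5, 14.4 and 17.7 FPKM at 1 h (log2 change 3.34 ± 0.32, adjusted p = 3.06e-06). Fes1B, by its name a cofactor of HSP70 proteins, measured 15.5, 12.7 and 17.1 FPKM at 3 h, against 0.669, 0.832 and 1.06 FPKM at 1 h (log2 change 3.11 ± 0.16, adjusted p = 1.05e-09). Several of the others serve chloroplasts. PORB, a light-dependent enzyme of chlorophyll synthesis (chromosome 4, 13725546 to 13727440, + strand), measured 394, 360.3 and 425 FPKM at 3 h, against 58.1, 70.6 and 63.7 FPKM at 1 h (log2 change 2.60 ± 0.12, adjusted p = 3.36e-10). WCRKC1, a thioredoxin, measured 15.1, 14.9 and 18.3 FPKM at 3 h, against 1.40, 1.49 and 2.92 FPKM at 1 h (2.57), and RbcX1, a chaperone for Rubisco assembly, measured 10.1, 11.7 and 13.6 FPKM at 3 h, against 0.766, 0.797 and 2.16 FPKM at 1 h (2.56). AT1G70820, annotated as a putative phosphoglucomutase, measured 62.7, 63.0 and 63.0 FPKM at 3 h, against 10.6, 10.7 and 13.3 FPKM at 1 h (2.36). AAP3, an amino acid permease, measured 27.4, 25.5 and 25.2 FPKM at 3 h, against 4.17, 4.50 and 3.78 FPKM at 1 h (2.39). The dormancy-associated genes DRM2 (AT2G33830, 3.09) and DRM1 (2.51) and the zinc finger gene AT5G22920 (2.45) complete the 12. Mean levels of AT5G22920 were 78.9, 9.13 and 54.1 FPKM at 0, 1 and 3 h, and those of DRM1 were 31.3, 7.95 and 52.5 FPKM. Neither was called at 3 h against 0 h (limma, adjusted p = 0.656 and 0.101). AT3G62550, AT2G15880, DRM2, WCRKC1 and RbcX1 also had lower means at 1 h than at 0 h, but stood above 0 h at 3 h.

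The largest fall was HSP70 (AT3G12580), a cytosolic chaperone, which measured 8.18, 10.6 and 8.79 FPKM at 3 h, against 90.8, 77.2 and 50.6 FPKM at 1 h (log2 change −2.82 ± 0.22, adjusted p = 2.92e-07). AT5G48570, an FKBP-type isomerase, measured 3.3, 3.81 and 3.48 FPKM at 3 h, against 31.6, 27.3 and 18.7 FPKM at 1 h (−2.54). ELIP2, a light-stress protein of the chloroplast, measured 59.0, 58.4 and 43.3 FPKM at 3 h, against 354, 336 and 359.8 FPKM at 1 h (log2 change −2.70 ± 0.16, adjusted p = 9.69e-09). It had 697, 691 and 711 FPKM at 0 h, so its mean was lower at each later time. LHY, the morning clock factor (chromosome 1, 33365 to 37871, − strand), measured 18.3, 17.8 and 15.4 FPKM at 3 h, against 80.1, 102 and 82.7 FPKM at 1 h (log2 change −2.29 ± 0.11, adjusted p = 4.01e-10). PS2, a pyrophosphatase induced by phosphate starvation, measured 1.32, 3.44 and 1.87 FPKM at 3 h, against 24.5, 17.4 and 9.21 FPKM at 1 h (−2.45). 2 annotated transcription factor genes were low before JA, high at 1 h and lower again at 3 h. AT4G29930, a bHLH gene, measured 10.8, 10.8 and 10.4 FPKM at 3 h, against 64.3, 56.9 and 73.5 FPKM at 1 h, having had 4.56, 7.15 and 7.69 FPKM at 0 h (log2 change −2.49 ± 0.14, adjusted p = 5.9e-09). AT5G61890, of the integrase-type DNA-binding family, measured 1.04, 2.50 and 1.52 FPKM at 3 h, against 11.4, 11.8 and 17 FPKM at 1 h (log2 change −2.44 ± 0.20, adjusted p = 1.98e-07), with at most 0.0704 FPKM at 0 h. The others were the cysteine proteinase gene AT2G27420 (−2.70), cPT4 (−2.60), the dynein light chain gene AT4G27360 (−2.38), the Dof-type gene AT1G26790 (−2.32) and the methyltransferase gene AT5G42760 (−2.27). All 24 genes passed the test in every alternative that tested them. The filter at a mean of 5 FPKM left AT1G26790 untested.

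**Figure D3:**
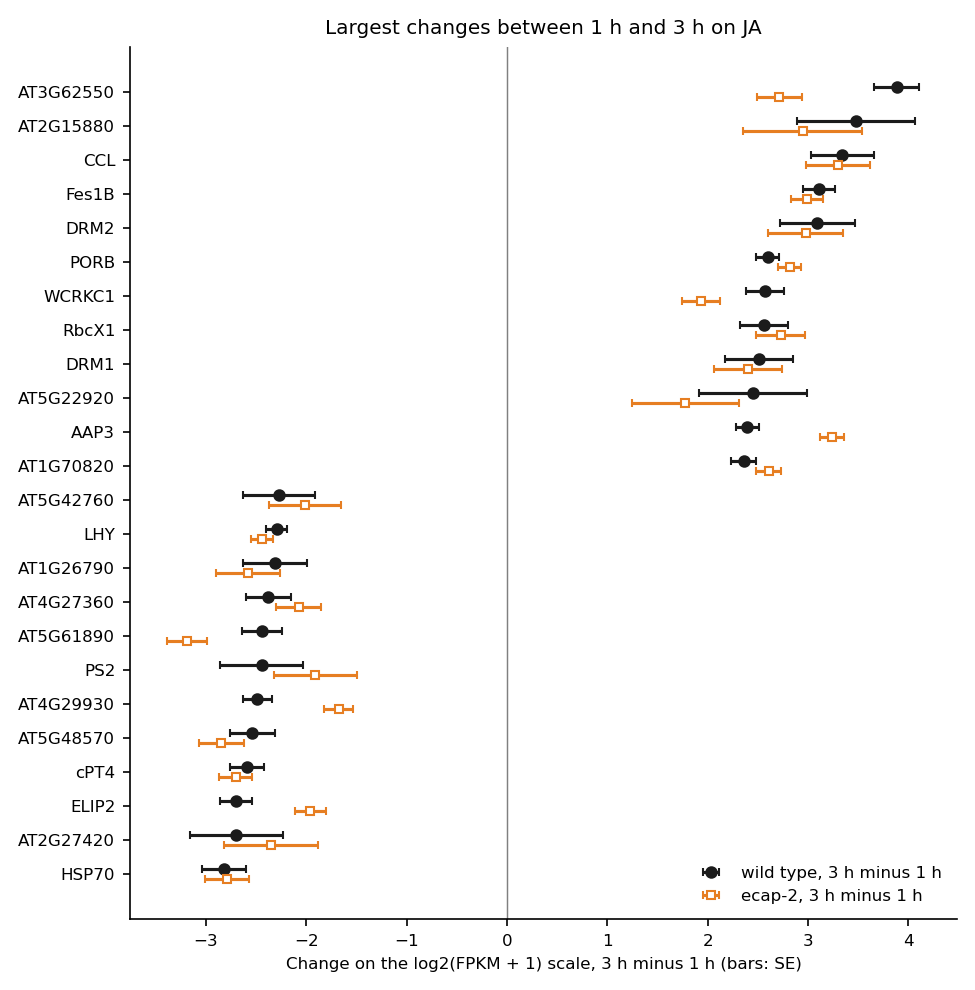
Change on the log2(FPKM + 1) scale, 3 h minus 1 h, with SE bars, for the 12 largest rises and 12 largest falls in wild type (black circles), with the same shift in ecap-2 (open orange squares). All 24 genes have the same sign in both genotypes.

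Clock genes split by their time of day. Of 10 morning genes 8 fell and 0 rose (8 and 1 at an unadjusted p under 0.05, limma), with a median of −0.69. CCA1 (chromosome 2, 19245591 to 19248915, + strand) measured 25.6, 25.5 and 22 FPKM at 3 h, against 84.8, 96.0 and 87.7 FPKM at 1 h (log2 change −1.84 ± 0.10, adjusted p = 1.7e-09). RVE8, an activator of evening genes, measured 17.4, 18.3 and 16.3 FPKM at 3 h, against 52.3, 57.0 and 49.1 FPKM at 1 h (log2 change −1.55 ± 0.10, adjusted p = 1.7e-08). The co-activators LNK2 (log2 change −0.88 ± 0.09, adjusted p = 2.41e-06) and LNK1 (−0.49, adjusted p = 0.00049) and RVE1, which links the clock to auxin (−0.84, adjusted p = 0.000768), fell as well. CCA1 had 143, 144 and 116 FPKM at 0 h and LHY 257, 243 and 189 FPKM at 0 h, so the means of both were lower at each later time. PRR9 (−0.16, adjusted p = 0.596) and RVE7 (0.65, adjusted p = 0.0838) were not called, and RVE7 passed as a rise with the replicate number as a block (0.000426) and with a fit to only these 6 libraries (0.0212).

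Of 11 day and evening clock genes 7 rose and 0 fell (7 and 0 at an unadjusted p under 0.05, limma), with a median of 0.66. PRR5 measured 8.63, 7.59 and 8.15 FPKM at 3 h, against 0.826, 0.704 and 0.868 FPKM at 1 h (log2 change 2.34 ± 0.12, adjusted p = 8.54e-10), having had 0.821, 0.771 and 0.621 FPKM at 0 h. PRR7 (chromosome 5, 637681 to 642030, − strand) measured 54.7, 53.4 and 53.8 FPKM at 3 h, against 23.4, 23.2 and 24.3 FPKM at 1 h (log2 change 1.16 ± 0.09, adjusted p = 1.3e-07). Both encode repressors of CCA1 and LHY. Of the evening complex, ELF4 measured 5.59, 6.47 and 5.81 FPKM at 3 h, against 1.63, 1.04 and 1.80 FPKM at 1 h (log2 change 1.49 ± 0.15, adjusted p = 1.31e-06) and ELF3 measured 15.3, 13.8 and 16.0 FPKM at 3 h, against 6.32, 7.34 and 5.78 FPKM at 1 h (log2 change 1.1 ± 0.10, adjusted p = 3.23e-07), while LUX had a change of 0.09 (adjusted p = 0.561). GI, a regulator of flowering time and the clock, measured 20.3, 20.1 and 20.9 FPKM at 3 h, against 11, 10.7 and 8.55 FPKM at 1 h (log2 change 0.96 ± 0.13, adjusted p = 3.22e-05). TOC1, a core evening repressor, rose by less (log2 change 0.56 ± 0.07, adjusted p = 1.1e-05). The 3 h libraries of these called genes all lay above their 1 h libraries. With genes under a mean of 5 FPKM left out of the test, 4 of the list rose.

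**Figure D4:**
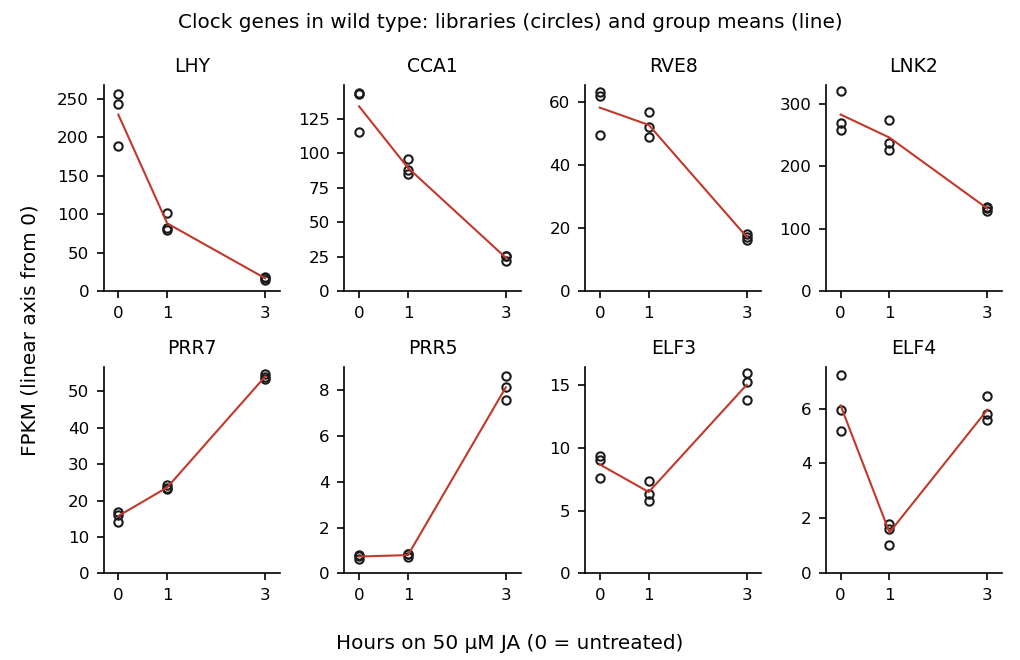
FPKM of 8 clock genes in wild type at 0, 1 and 3 h, with 1 circle for each library and a line through the group means, each panel on its own linear axis from 0. LHY, CCA1, RVE8 and LNK2 are lowest at 3 h, and PRR7, PRR5 and ELF3 are highest at 3 h, while ELF4 at 3 h is near its 0 h level.

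The bases before each gene's annotated start were read for short motifs from the RefSeq TAIR10.1 genome, 250 per gene, since clock and JA regulators are known to bind such motifs. The G-box CACGTG reads the same on both strands, and AATATCT, the core of the evening element, was searched on both. CACATG, a relative of the G-box, was searched on both strands. So was GCCGCC, the GCC box of ethylene response factors. GGNCCC, part of a motif of TCP factors, was also searched on both strands. No motif contains another. CACGTG stood in 9.87% of the windows of the 314 genes that rose at least 2-fold, in 18.2% of those of 209 that fell at least 2-fold and in 7.49% of those of all 17790 tested genes with a window. AATATCT stood in 23.6% of the windows of the 2-fold rises, in 9.09% of those of the 2-fold falls and in 10.2% of all. For CACATG these shares were 16.2%, 21.1% and 11.4%. For GCCGCC they were 0.318%, 1.44% and 1.90%, and for GGNCCC 10.8%, 9.57% and 8.20%. Over all 2579 rises and the 2575 falls with a window, of any size, the shares were 7.72% and 10.7% for CACGTG, 15.6% and 8.16% for AATATCT, 12.3% and 14% for CACATG, 1.90% and 1.44% for GCCGCC, and 10.4% and 7.73% for GGNCCC. The GCCGCC share of the 2-fold rises rests on 1 window, and over all rises it equalled that of all genes. These are descriptions with no test, and a match is a run of letters, not a bound site.

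The windows of 4 genes described above are examples of a rise and a fall for the G-box and the evening element core. Each gene had the lowest p in its direction among certain named genes that hold the motif. Those were the genes on the 33 lists or among the 12 largest changes each way. No gene was chosen again for the other motif. The windows are written along the gene's own strand. Capitals mark every match to these motifs. On the opposite strand the evening element core reads AGATATT. The G-box starts 201 bases before the start of PRR7, which rose, 80 bases before that of LHY and 193 before that of CCA1, which fell. The evening element core starts 140 bases before the start of PORB, which rose. On the opposite strand it starts 135 bases before the start of CCA1 and 37 before that of PRR7, so genes that moved in opposite directions hold the same letters. PRR7 is at chr5:642031-642280 (− strand), LHY at chr1:37872-38121 (− strand), PORB at chr4:13725296-13725545 (+ strand) and CCA1 at chr2:19245341-19245590 (+ strand).
PRR7: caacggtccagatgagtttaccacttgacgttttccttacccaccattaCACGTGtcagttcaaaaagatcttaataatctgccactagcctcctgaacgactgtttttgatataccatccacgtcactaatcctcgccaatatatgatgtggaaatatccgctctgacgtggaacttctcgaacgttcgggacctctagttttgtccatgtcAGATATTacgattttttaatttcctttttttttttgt
LHY: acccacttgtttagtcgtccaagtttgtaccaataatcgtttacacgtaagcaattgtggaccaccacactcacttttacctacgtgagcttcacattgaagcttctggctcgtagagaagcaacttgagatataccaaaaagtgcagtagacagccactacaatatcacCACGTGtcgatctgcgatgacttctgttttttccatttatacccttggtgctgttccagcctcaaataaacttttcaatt
PORB: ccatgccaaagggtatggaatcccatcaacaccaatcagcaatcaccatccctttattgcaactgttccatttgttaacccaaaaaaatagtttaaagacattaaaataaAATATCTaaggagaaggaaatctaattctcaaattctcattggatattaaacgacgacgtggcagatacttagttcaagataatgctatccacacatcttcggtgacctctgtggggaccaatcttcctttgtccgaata
CCA1: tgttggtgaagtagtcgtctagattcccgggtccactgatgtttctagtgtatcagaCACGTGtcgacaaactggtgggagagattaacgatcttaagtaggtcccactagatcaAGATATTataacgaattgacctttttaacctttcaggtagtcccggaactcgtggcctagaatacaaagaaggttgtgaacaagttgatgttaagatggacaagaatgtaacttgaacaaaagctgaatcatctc

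Heat shock, light-response and cold genes were mostly lower at 3 h, while 14.5% of all genes fell. Of 6 tested heat shock genes 5 fell and 0 rose (5 and 0 at an unadjusted p under 0.05, limma), with a median of −1.13, and 2 fell when genes under a mean of 5 FPKM were left out. HSP101, a chaperone of heat tolerance, measured 3.5, 4.07 and 3.63 FPKM at 3 h, against 9.17, 8.38 and 6.58 FPKM at 1 h (log2 change −0.93 ± 0.14, adjusted p = 8.19e-05). HSFA2, a heat shock factor, measured 0.396, 0.452 and 0.364 FPKM at 3 h, against 2.2, 2.81 and 1.45 FPKM at 1 h (log2 change −1.14 ± 0.21, adjusted p = 0.000629). It had 5.40, 6.94 and 8.99 FPKM at 0 h. Of 6 light-response genes 5 fell and 0 rose (6 and 0 at an unadjusted p under 0.05, limma), with a median of −1.13. RUP2, a repressor of UV-B signalling, measured 6.68, 7.58 and 5.52 FPKM at 3 h, against 22.1, 17.1 and 18.3 FPKM at 1 h (log2 change −1.41 ± 0.22, adjusted p = 0.000167), and the light factor HYH measured 45.0, 51.6 and 39.9 FPKM at 3 h, against 95.8, 93.9 and 80.2 FPKM at 1 h (log2 change −0.97 ± 0.18, adjusted p = 0.000785). Of 4 cold genes 3 fell and 0 rose (3 and 0 at an unadjusted p under 0.05, limma). LTI78, a desiccation and cold protein gene, measured 30.1, 33.5 and 32.2 FPKM at 3 h, against 90.1, 98.4 and 70.9 FPKM at 1 h (log2 change −1.40 ± 0.16, adjusted p = 7.36e-06), having had 3.82, 6.22 and 4.89 FPKM at 0 h. COR47 (log2 change −0.64 ± 0.08, adjusted p = 1.42e-05) and GOLS3 (log2 change −0.99 ± 0.24, adjusted p = 0.00467) fell with it. KIN1 was not called (0.66, adjusted p = 0.195), and passed as a rise without the 1 h library 1 (0.0138). Of 15 touch and early stress genes 3 fell and 0 rose (4 and 0 at an unadjusted p under 0.05, limma), led by WRKY18 (log2 change −1.20 ± 0.17, adjusted p = 7.49e-05) and the calmodulin-like TCH2 (log2 change −0.50 ± 0.10, adjusted p = 0.00111). The third was WRKY53 (log2 change −0.46 ± 0.13, adjusted p = 0.0129), whose call ended without the 3 h library 2 (0.0688).

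Genes of other hormones were described as lists too, beside 14.5% of all genes called each way. In the gibberellin list 2 of 9 rose and 3 fell. The receptor gene GID1A measured 15.3, 14.8 and 16.4 FPKM at 3 h, against 8.36, 9.15 and 9.80 FPKM at 1 h (log2 change 0.71 ± 0.10, adjusted p = 4.71e-05), while its paralog GID1B measured 11.6, 12.2 and 10.9 FPKM at 3 h, against 19.2, 19.9 and 18.7 FPKM at 1 h (log2 change −0.69 ± 0.07, adjusted p = 1.34e-06). The DELLA repressor genes RGL1 (log2 change −1.05 ± 0.13, adjusted p = 1.5e-05) and RGL3 (log2 change −0.55 ± 0.14, adjusted p = 0.00804) fell, and GA20OX2, of gibberellin synthesis, rose (log2 change 0.74 ± 0.19, adjusted p = 0.00738). With genes under a mean of 5 FPKM left out, 1 of the gibberellin list and 1 of the auxin list rose. In the auxin list 2 of 12 rose and 3 fell. IAA29 measured 4.27, 4.01 and 5.59 FPKM at 3 h, against 0.912, 1.32 and 1.77 FPKM at 1 h (log2 change 1.27 ± 0.21, adjusted p = 0.000245) and IAA1 8.46, 10.3 and 11.1 FPKM at 3 h, against 3.81, 3.59 and 5.65 FPKM at 1 h (log2 change 1.05 ± 0.21, adjusted p = 0.00127), while IAA19 measured 6.71, 6.99 and 8.43 FPKM at 3 h, against 11.9, 13.1 and 11.4 FPKM at 1 h (log2 change −0.65 ± 0.12, adjusted p = 0.000505). In the list of salicylic acid immunity 4 of 7 rose and 1 fell, with NPR1, the salicylic acid receptor, at 12, 11.8 and 12.3 FPKM at 3 h, against 9.15, 8.63 and 9.28 FPKM at 1 h (log2 change 0.38 ± 0.07, adjusted p = 0.00103) and the transporter gene EDS5 lower (log2 change −0.48 ± 0.10, adjusted p = 0.00206). Of 9 cytokinin response regulators 2 rose and 0 fell (3 and 1 at an unadjusted p under 0.05, limma): ARR3 (log2 change 0.80 ± 0.19, adjusted p = 0.00378) and ARR5 (log2 change 0.72 ± 0.22, adjusted p = 0.0201). The ARR5 call ended with a pseudocount of 0.1 (0.0564), without the 3 h library 1 (0.0569), without the 3 h library 2 (0.0658) and without the 1 h library 1 (0.0652). Without the 1 h library 1, 1 member fell.

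PIF4, a growth-promoting factor, measured 61.7, 58.2 and 62.1 FPKM at 3 h, against 17.9, 28.2 and 25.9 FPKM at 1 h (log2 change 1.33 ± 0.17, adjusted p = 2.51e-05), and its relative PIF5 measured 62.1, 61.7 and 69.6 FPKM at 3 h, against 45.5, 61.1 and 60.2 FPKM at 1 h (adjusted p = 0.181). Of the 10 growth and cell wall genes, 2 rose and 2 fell, beside 14.5% of all genes called each way. The other 3 called were EXPA8 (log2 change 0.77 ± 0.23, adjusted p = 0.021), XTH24 (log2 change −0.43 ± 0.13, adjusted p = 0.0199) and XTH15 (log2 change −0.34 ± 0.11, adjusted p = 0.0334), and their calls ended without the 3 h library 3 (0.098) and without the 1 h library 1 (0.0865) for EXPA8, without the 3 h library 1 (0.111) and without the 1 h library 2 (0.0817) for XTH24 and with a fit to only these 6 libraries (0.0932), without the 3 h library 2 (0.165), without the 1 h library 2 (0.173) and without the 1 h library 3 (0.0595) for XTH15. Of 10 genes induced by darkness or low sugar 6 rose and 0 fell (6 and 0 at an unadjusted p under 0.05, limma), with a median of 1.01. DRM1 and DRM2 led them, and BT4, a BTB-TAZ scaffold gene, measured 16.6, 17.1 and 16.8 FPKM at 3 h, against 11.4, 9.53 and 11.4 FPKM at 1 h (log2 change 0.60 ± 0.12, adjusted p = 0.00127). The other rises were BT2 (log2 change 2.07 ± 0.62, adjusted p = 0.0239), ASN1 (log2 change 1.69 ± 0.54, adjusted p = 0.0311) and DIN10 (log2 change 1.42 ± 0.41, adjusted p = 0.0198). Without the 3 h library 1 or 3 or the 1 h library 1, none of these 3 was called and 3 members rose, with adjusted p of up to 0.0913, 0.0982 and 0.0746. The ASN1 call ended in each of the 6 fits that left out a library, and BT2 was also lost without the 1 h library 2 and with a fit to only the libraries compared (adjusted p = 0.0533). BT2 measured 33.3, 21.6 and 49.7 FPKM at 3 h, against 4.26, 5.65 and 14.2 FPKM at 1 h, having had 41.6, 120.3 and 154 FPKM at 0 h.

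Of 12 iron deficiency genes 2 fell and 1 rose, beside 14.5% of all genes called each way. The iron transporter gene IRT1 measured 6.93, 2.66 and 4.41 FPKM at 3 h, against 17.1, 12.6 and 11.4 FPKM at 1 h (log2 change −1.43 ± 0.40, adjusted p = 0.0153), and its regulator FIT measured 10, 7.99 and 8.65 FPKM at 3 h, against 12.4, 14.2 and 10.8 FPKM at 1 h (log2 change −0.44 ± 0.12, adjusted p = 0.0101). The reductase gene FRO3 rose (log2 change 0.49 ± 0.15, adjusted p = 0.021). The calls ended without the 3 h library 2 (0.0689) and without the 1 h library 1 (0.0541) for IRT1, without the 3 h library 2 (0.0509) and without the 1 h library 2 (0.0556) for FIT and without the 3 h library 1 (0.0824) and without the 1 h library 3 (0.0701) for FRO3. BHLH39, another iron regulator, measured 16.9, 10.9 and 11.4 FPKM at 3 h, against 8.12, 8.08 and 6.52 FPKM at 1 h without passing the test (adjusted p = 0.165), and passed with the replicate number as a block (0.0282) and with a fit to only these 6 libraries (0.0138).

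Markers of cell division gave no call, while 14.5% of all genes rose and 14.5% fell. Root and guard cell markers gave 1 fall each, which in lists this short is not set apart from those shares. Of 10 cell cycle genes 0 rose and 0 fell (0 and 0 at an unadjusted p under 0.05, limma), with changes of −0.04 to 0.14. Their summed level was 131 to 134 FPKM at 3 h and 121 to 133 FPKM at 1 h. Of 10 root markers 1 fell, SCR (log2 change −0.47 ± 0.12, adjusted p = 0.00573), and 0 rose (2 and 1 at an unadjusted p under 0.05, limma), with a summed level of 128 to 149 FPKM at 3 h and 141 to 169 FPKM at 1 h. A root marker rose in 5 other settings and without the 3 h library 1 or the 1 h library 2. Of 7 guard cell markers 1 fell, FAMA (log2 change −0.24 ± 0.08, adjusted p = 0.0352), and 0 rose (1 and 0 at an unadjusted p under 0.05, limma). The FAMA call ended with a fit to only these 6 libraries (0.0752), without the 3 h library 1 (0.0613), without the 3 h library 2 (0.107), without the 3 h library 3 (0.0759) and without the 1 h library 3 (0.172). Guard cell markers summed to 43.0 to 49.1 FPKM at 3 h and 43.4 to 50.8 FPKM at 1 h. Of 15 photosynthesis genes 5 rose and 2 fell. RCA, the activase of Rubisco, measured 3413, 3374 and 3385 FPKM at 3 h, against 3757, 4732 and 4311 FPKM at 1 h (log2 change −0.33 ± 0.08, adjusted p = 0.00582), and the 5 rises were light-harvesting genes with changes of 0.24 to 0.35. The rises numbered 1 without the 3 h library 1, 3 without the 3 h library 2 and 0 without the 3 h library 3 or the 1 h library 1. With quantile normalization 1 rose and 6 fell, so the split of this list turned with the scaling. LHCB1 and RBCS genes have near-identical copies, which makes their separate values uncertain. The photosynthesis genes summed to 64573 to 67414 FPKM at 3 h and 55902 to 65992 FPKM at 1 h.

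Of 6 seed storage genes 0 rose and 0 fell (1 and 0 at an unadjusted p under 0.05, limma), although their median was 1.31. CRA1, a cruciferin, measured 6.66, 23.9 and 0.802 FPKM at 3 h, against 0.642, 1.02 and 0.500 FPKM at 1 h (log2 change 2.04 ± 1.03, adjusted p = 0.167), and the second 3 h library was far above the other wild-type libraries of these 2 times. Its level had been 15.9, 9.47 and 15.7 FPKM at 0 h. The list summed to 5.53 to 49.0 FPKM at 3 h and 1.07 to 5.90 FPKM at 1 h. What part this difference between libraries has in other results was not tested. Of 6 genes often used as references, ACT2 fell (321, 313 and 336 FPKM at 3 h, against 419, 467 and 447 FPKM at 1 h, log2 change −0.46 ± 0.07, adjusted p = 6.73e-05) and did so under each of the 3 rescalings tried. UBQ10 was called higher (0.28 ± 0.09, adjusted p = 0.0239), and that call ended with quantile normalization (0.0568), with a fit to only these 6 libraries (0.0712), without the 3 h library 1 (0.082), without the 3 h library 3 (0.0626), without the 1 h library 1 (0.0895) and without the 1 h library 3 (0.116).

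The same shift was measured in ecap-2, which shares no library with the wild-type comparison. AT3G58110, taken here as the ECAP locus from general knowledge, was far lower in ecap-2 libraries, with 2.62, 2.34 and 2.72 FPKM at 3 h, against 2.48, 2.48 and 2.67 FPKM at 1 h, while wild type had 12.3, 12.8 and 13.8 FPKM at 3 h, against 14.1, 14.9 and 14.9 FPKM at 1 h. In ecap-2, 7243 genes changed (40.6% of those tested), 3726 of them higher (20.9%) and 3517 lower (19.7%). Of the 2579 genes that rose in wild type, 1843 also rose in ecap-2, which is 71.5% of the wild-type list and 49.5% of the ecap-2 list. Of the 2585 that fell, 1552 also fell in ecap-2, 60.0% of the wild-type list and 44.1% of the ecap-2 list. Few were called in opposite directions: 35 of the wild-type rises fell in ecap-2, and 23 of the wild-type falls rose.

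The difference of the shift, wild type minus ecap-2, was called for 575 genes (3.22%). The shift was higher in wild type for 319 (1.79%) and lower for 256 (1.44%). With every library rescaled to a common total, 1107 were called, 988 higher and 119 lower. That rescaling moved the median change of all genes to −0.15 in ecap-2 and −0.05 in wild type. The total FPKM of the ecap-2 libraries at 3 h was 853858 to 912834, and that of the wild-type libraries at 3 h was 746650 to 765209. Of the wild-type rises 120 had a called difference, and of the falls 136. WRKY42, which was not called in wild type, measured 0.609, 0.880 and 0.460 FPKM at 3 h, against 0.405, 0.443 and 0.211 FPKM at 1 h in wild type and 4.88, 4.34 and 4.39 FPKM at 3 h, against 0.978, 0.700 and 0.642 FPKM at 1 h in ecap-2 (difference −1.36 ± 0.17, adjusted p = 0.00268). In wild type it passed as a rise with the replicate number as a block (0.0487), with plain empirical Bayes (0.049) and without the 3 h library 3 (0.0484). AT5G26280, a TRAF-like gene, rose in both genotypes and by more in wild type, with 989, 1036 and 924 FPKM at 3 h, against 361, 400.0 and 344 FPKM at 1 h in wild type and 515, 586 and 633 FPKM at 3 h, against 397, 413 and 405 FPKM at 1 h in ecap-2 (difference 0.91 ± 0.13, adjusted p = 0.00547). AAP3 rose by less in wild type, with 30.3, 29.5 and 25.2 FPKM at 3 h, against 2.13, 2.43 and 1.77 FPKM at 1 h in ecap-2 (difference −0.85 ± 0.17, adjusted p = 0.0184). The count of differences was 125 without the 3 h library 1, 177 without the 3 h library 2, 143 without the 3 h library 3 and 310 without the 1 h library 3. It was 388 and 500 without the 1 h libraries 2 and 1.

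**Figure D5:**
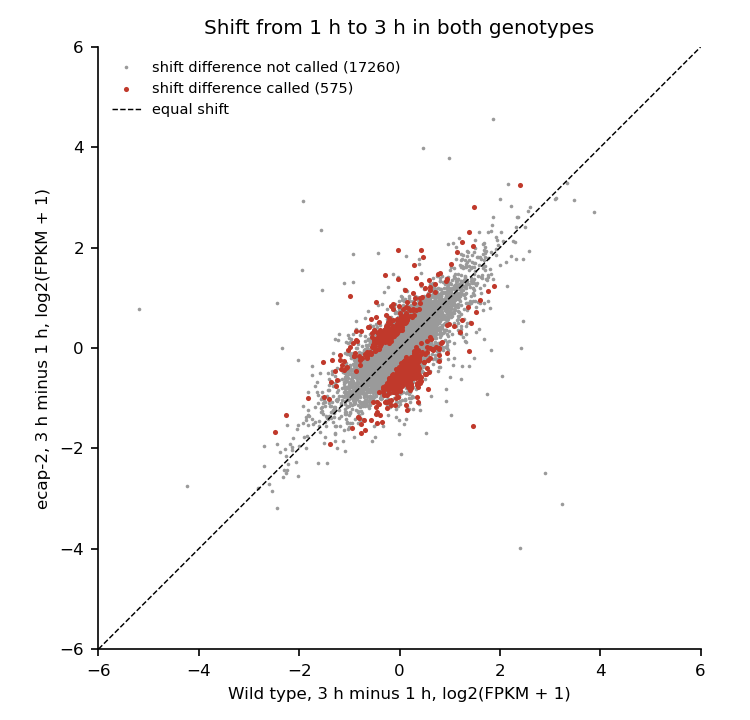
Shift from 1 h to 3 h of each tested gene on the log2(FPKM + 1) scale in wild type (horizontal axis) and ecap-2 (vertical axis), with the line of equal shift dashed. Red points are the 575 genes whose shift differed between the genotypes, and most points lie along the line.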

How the data were processed

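Gene expression was measured by RNA-seq in 18 libraries, 3 for each of 6 groups of genotype and time, grouped by the sample labels. The deposited values are FPKM per gene, per the file headers, with no counts. Per the submitters' processing notes, the tools were Cufflinks and TopHat2 on the TAIR10 build. Tool versions, strandedness and the treatment of multi-mapping fragments are not given in the sources used here. Read depth is unknown, so no counting interval is given. A relative depth came from 2731 genes with a mean under 0.15 FPKM, as the most frequent value of the binned ratios between libraries.

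Of 22209 genes listed, 22122 matched the RefSeq gene table (TAIR10.1), which gave names, and 17835 (80.3%) reached 1 FPKM in at least 3 libraries and were tested. A model of 6 group means was fitted to log2(FPKM + 1) in all 18 libraries with limma 3.58.1 (R 4.3.3, trended and robust variances), with 12 residual degrees of freedom and a median of 4.56 prior ones. Contrasts were wild type 3 h minus 1 h, the same in ecap-2, and their difference, with Benjamini-Hochberg adjustment and a threshold of 0.05. On simulated data for the wild-type comparison of 17835 genes, with 200 genes changed by 1 on the log2 scale in 5 rounds, 93.2% were recovered and 5.28% of calls were false. The simulated noise was normal and independent between genes and libraries, and far fewer genes changed than were called here. These rates therefore need not hold for the real comparison. Figures used Python 3.11.15 and matplotlib 3.10.9.

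Named genes are the 12 largest called changes each way with at least 5 FPKM in the higher group and no overlap, up to 4 members of smallest p in each of 33 gene lists, and the 6 genes of smallest p in the difference of the shift. Members for other steps of a pathway, for the opposite direction or for the closing observations were added after their values were seen. The members and lists were chosen with earlier results of these data known. Of 3 further lists, on phosphate, starch and abscisic acid, the choice followed the values themselves. Some names (JOX, JAZ13, UGT75C1, IGPS and others), and ECAP for AT3G58110, come from general knowledge. The alternatives were other pseudocounts, filters and scalings, a replicate block, a fit to the 6 libraries alone, plain variances and leaving out each library.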

Additional observations from a re-analysis of the deposited data

Results flagged for a closer look

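The shift from 1 h to 3 h differed between the genotypes for 575 genes, by limma's test of the difference, wild type minus ecap-2. The shift was higher in wild type for 319 of them (1.79% of all genes tested) and lower for 256 (1.44%), which says nothing of the level. With a common total the counts were 988 higher and 119 lower. Of the genes named here 24 passed this test, and 11 of these passed without each left-out wild-type library in turn. They are given as values.

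Of the 11 that passed without each of the 6 libraries, 7 had a lower and 4 a higher shift in wild type, a split that describes these named genes alone. AAP3, an amino acid permease, differed by −0.85, F3'H, a flavonoid hydroxylase, by −1.36, and WRKY42 by −1.36. AT4G12490, a lipid-transfer family gene, differed by −1.99, AT4G17280, of an auxin-responsive family, by −0.84, the P450 gene AT5G36130 by −1.32, and HAI1, a phosphatase gene of abscisic acid response, by −1.10. The shift was higher in wild type for the terpene synthase gene TPS04 (0.92), the starch synthase gene SS4 (0.56), AT3G02760, of the class II aminoacyl-tRNA synthetases (0.55), and the TRAF-like gene AT5G26280 (0.91). For TPS04 that was a smaller fall, −0.77 in wild type against −1.69 in ecap-2. Its mean level was lower in wild type at both times, 0.084 against 0.262 FPKM at 3 h and 0.854 against 3.11 FPKM at 1 h. TPS04 and AT5G36130 were not called with a pseudocount of 0.1 (adjusted p = 0.38 and 0.225).

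The other 13 lost the call without one or more libraries. Each is given with the highest adjusted p over its alternatives. Among genes described with the JA pathway or the largest falls these were AT4G29930, a bHLH gene (−0.81, 0.089), IAR3 (−0.50, 0.0746), JAZ4 (0.66, 0.105) and NAC072 (−1.0, 0.084). In secondary metabolism and ascorbate they were CYP81F4 (−0.71, 0.0683), UGT78D2 (−1.38, 0.0683) and MDAR3 (−0.54, 0.141). The others were FIT (0.84, 0.0599), NPR1 (−0.40, 0.124), EDS1 (0.57, 0.0842), ERD10 (−0.41, 0.0778), HVA22D (−0.93, 0.0815) and the beta-amylase gene BAM5 (−1.76, 0.082).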

How the results depend on the processing

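The counts over all genes kept within 1.5 times of 2579 higher and 2585 lower in every alternative, and leaving out a library gave 1957 to 2545 higher and 1968 to 2651 lower. Changes of at least 1 on the log2 scale of the setting numbered 342 lower with a pseudocount of 0.1. They numbered 154 higher and 105 lower with a pseudocount of 5, which shrinks low genes by construction. The shift differed between genotypes for 1107 genes with a common total, 1038 with the replicate block and 879 with a fit to only the libraries compared, against 575, and for 125 to 500 with a library left out. Higher calls made up 40.2% of the wild-type calls with a common total and 43.4% without the 1 h library 1, against 49.9%. Of the shift differences 89.3% were higher in wild type with a common total and 41.6% without the 1 h library 1, against 55.5%. PAP1, not called, had −0.52 to 0.23 with a library left out (0.23 and adjusted p = 0.675 without the 3 h library 3) and −0.18 with all. Over the named genes and alternatives, 3482 values kept their side of the threshold, 138 lost the call and 28 gained it. The 3482 kept their direction too, except that values not called could change sign where the move was under the SE. DIN1, for example, had −0.01 with all libraries and −0.23 to 0.23 over the alternatives. Causes were not tested. Deviations of same-numbered wild-type libraries at 3 h and 1 h correlated at −0.04, −0.11 and 0.10, and those of ecap-2 at 0.05, −0.03 and 0.28, so the numbers were not taken as pairs in these comparisons. Over all 15 pairs of groups in the fit these correlations ran from −0.16 to 0.32 (median 0.08), and in 2 pairs, wild type at 1 h with 0 h and ecap-2 at 1 h with wild type at 0 h, every one was above 0.1. For wild type at 1 h they were 0.121, 0.056 and 0.196 with ecap-2 at 1 h, and 0.151, 0.085 and 0.155 with ecap-2 at 0 h. Libraries of other numbers had means of −0.062 and −0.066 in these pairs. The replicate block gave 2798 higher and 2759 lower. Depth is unknown, and the 1 h library 2 had the lowest relative depth, at 0.669.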

Other observations

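The phosphate, starch and abscisic acid lists were chosen after values were seen and are described only. Of 13 phosphate starvation genes 7 fell and 1 rose (median −0.43). PECP1, a phosphatase, measured 0.624, 1.01 and 0.266 FPKM at 3 h, against 3.60, 2.23 and 1.1 FPKM at 1 h (log2 change −0.97 ± 0.25, adjusted p = 0.00851). SPX1, a phosphate sensor, measured 15.4, 23.5 and 17.2 FPKM at 3 h, against 69.8, 56.7 and 36.5 FPKM at 1 h (log2 change −1.46 ± 0.23, adjusted p = 0.000243). The sulfolipid genes SQD1 (−0.42, adjusted p = 0.000508) and SQD2 (−0.30, adjusted p = 0.03) fell as well. The SQD2 call ended without the 3 h library 1 (0.0836), without the 3 h library 2 (0.0573), without the 3 h library 3 (0.0716), without the 1 h library 1 (0.0728) and without the 1 h library 2 (0.129). No phosphate gene rose without the 3 h library 1 or 2 or the 1 h library 3. Of 16 starch genes 11 rose and 3 fell (median 0.37). SEX1, the glucan dikinase that opens starch to breakdown, measured 49.7, 53.3 and 49.5 FPKM at 3 h, against 16.5, 18.3 and 15.5 FPKM at 1 h (log2 change 1.55 ± 0.06, adjusted p = 1.36e-10). AMY3, an alpha-amylase, measured 54.2, 56.1 and 57.3 FPKM at 3 h, against 20.2, 20.9 and 19.8 FPKM at 1 h (log2 change 1.42 ± 0.08, adjusted p = 4.81e-09), and GBSS1, which makes amylose, measured 47.3, 66.2 and 41.6 FPKM at 3 h, against 182, 204 and 165 FPKM at 1 h (log2 change −1.83 ± 0.20, adjusted p = 7.02e-06). Of 14 abscisic acid and dehydration genes 6 fell and 1 rose (median −0.28), and 2 rose without the 1 h library 2. The phosphatase gene HAI1 measured 0.789, 0.886 and 0.744 FPKM at 3 h, against 4.70, 3.44 and 2.82 FPKM at 1 h (log2 change −1.35 ± 0.14, adjusted p = 2.99e-06).

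Families are given as counts beside the 14.5% of all genes called each way. They hold only genes whose annotated product name matched a case-sensitive search. Other spellings were missed, such as that of the P450 gene F3'H, so these counts are not of whole families. The search also did not exclude products that only mention a family's name, such as enzymes that act on histones. Of 49 genes matched as heat shock chaperones 2 rose and 19 fell (38.8%). Of 39 genes matched as histone, 10 rose (25.6%) and 1 fell. The separate list of 10 cell cycle genes had no call at an unadjusted p under 0.05 (limma). Of 120 genes matched as cytochrome P450, 32 rose (26.7%) and 23 fell (19.2%). Of 85 matched as ribosomal protein genes, 3 rose and 4 fell. Of 17 B-box genes, which encode zinc finger regulators of light responses, 4 rose and 6 fell. BBX30 measured 1.88, 3.77 and 1.51 FPKM at 3 h, against 27.0, 10.4 and 10.8 FPKM at 1 h (log2 change −2.25 ± 0.55, adjusted p = 0.00763), and BBX27 measured 37.1, 30.8 and 38.8 FPKM at 3 h, against 9.22, 12.1 and 12.6 FPKM at 1 h (log2 change 1.58 ± 0.31, adjusted p = 0.00158). Among the wild-type libraries, the first 1 h library was far above the others in BBX30.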
